A study of Mus musculus with 9 samples.

Results

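The 9 genes described here encode cell surface receptors that steer blood cells toward or away from sources of chemokines and of the lipid sphingosine-1-phosphate. They were chosen by name as receptors of mobilisation and homing: Cxcr2, Cxcr3, Ccr1, Ccr2, Ccr9, Cx3cr1, S1pr1, S1pr2 and S1pr4. All 9 were present among the 14461 genes of the deposited table, each under 1 Ensembl identifier, and all 9 passed the filter on low values that left 13771 genes for testing. RNA was sequenced from LSK cells, the lineage-negative, Sca-1-positive and c-Kit-positive fraction of bone marrow that holds stem cells and early progenitors, sorted from parabiotic mice, which are joined surgically and share a circulation. There were 9 libraries, 3 each of circulating, irradiated and endogenous LSK cells. Circulating and irradiated LSK cells carry the strain label C57BL/6 and endogenous LSK cells the label B6SJL CD45.1, so strain and group cannot be told apart in comparisons with endogenous cells. The series design names as its subject LSK cells that travelled by blood into the marrow of the irradiated partner. The labels used here do not give the radiation dose, the ages, whether animals were pooled, or how circulating cells were distinguished in the sort.

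Chemokine receptors are 7-transmembrane receptors coupled mainly to inhibitory G proteins, and a cell that carries one moves up the gradient of its ligand. In marrow, the CXCL12 receptor gene Cxcr4 is best known for retention, Cxcr2 and Ccr2 for the release of neutrophils and monocytes into blood, and receptors for sphingosine-1-phosphate for exit along the high lipid level of blood and lymph. The series title names CXCL1, a ligand of the receptor encoded by Cxcr2.

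Values are the deposited normalised signal, that is, estimated read counts divided by a scaled library size, and errors are SD with n = 3. Recovered estimated counts summed to between 14065855 (circulating replicate 2) and 27012345 (irradiated replicate 2) per library, and a receptor rested on between 63.5 and 4578.4 estimated counts in a library. Circulating replicate 2 also had 560 genes at a count of 0, against 15 to 206 in the other libraries. Depth bears on counting error, and the reads carry no molecular identifiers. The cause of the lower depth and the zero counts of circulating replicate 2 was not tested. Transcripts of the sort were present in all groups: Ly6a, which encodes Sca-1, averaged 136.8 ± 9.21 in circulating, 174.4 ± 23.9 in irradiated and 180.0 ± 12.8 in endogenous LSK libraries, and Kit averaged 379.3 ± 45.1, 586.8 ± 31.4 and 878.5 ± 137.3 in those 3 groups. Of these 2 genes, Kit alone passed a test, and only as lower in circulating than in endogenous cells (log2 difference -1.20, SE 0.13, limma adjusted p = 0.0026). Circulating libraries differed most among themselves: the median SD of a gene on the log2(value + 1) scale was 0.382 for circulating, 0.213 for irradiated and 0.262 for endogenous libraries.

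Ccr2 and Cxcr3 were the receptors that rose in circulating LSK cells relative to endogenous ones. Both were highest in all 3 circulating libraries and neither overlapped between these groups. The other 7 receptors did not pass the test in that comparison, and no receptor passed in the other comparisons. The receptors for sphingosine-1-phosphate and Cxcr2 showed no called difference in any comparison. Of the 9 receptors, 2 rose and 0 fell in circulating against endogenous cells, where 8.63% of all tested genes were called, 5.33% higher and 3.3% lower. That split of 734 higher and 455 lower genes depended on scaling, with 340 higher and 821 lower when libraries were scaled by their totals alone, and the 1189 called genes became 257 without endogenous replicate 1 and 2224 without circulating replicate 1. At an unadjusted p under 0.05 there were 3 of the 9 (Ccr9 in addition), against 26.7% of all tested genes. In circulating against irradiated cells 0 of the 9 were called, where 0.029% of all tested genes were called, and 3 had an unadjusted p under 0.05, against 11.4% of all genes. In irradiated against endogenous cells 0 of the 9 were called, where 0.603% of all genes were called, and 3 had an unadjusted p under 0.05, against 14.9% of all genes. With limma voom the counts were 2, 0 and 0 in the same order of comparisons. The median log2 difference of the 9 receptors was 0.43 in circulating against endogenous cells, against -0.04 for all tested genes. It was 0.61 against -0.02 in circulating against irradiated cells and -0.21 against -0.01 in irradiated against endogenous cells.

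**Figure D1:**
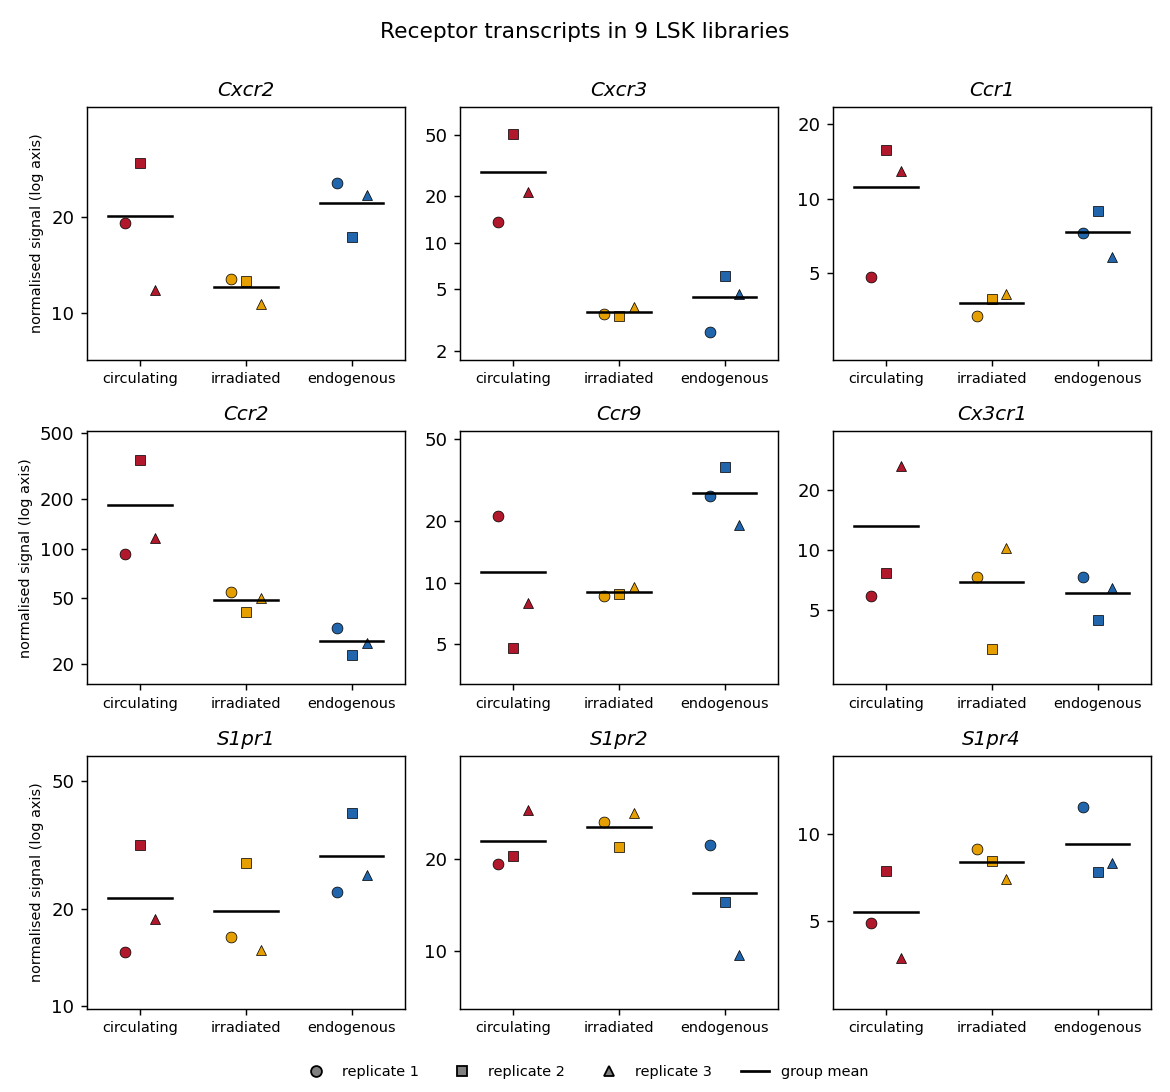
Deposited normalised signal (log axis) of each receptor gene in the 9 LSK libraries. Points are libraries, marker shapes are replicate numbers and lines are group means. Ccr2 shows 3 separate levels, with 93.25 to 343.9 in circulating cells, 41.1 to 54.65 in irradiated cells and 22.5 to 33.0 in endogenous cells.

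Ccr2 encodes the receptor for CCL2 and CCL7 and is known for guiding monocytes and their progenitors out of marrow and into inflamed tissue. The gene lies on chromosome 9 of GRCm38, the assembly that mm10 names, from 124101950 to 124113557 on the plus strand, within a cluster of chemokine receptor genes. Its signal was 93.25, 343.9 and 116.6 in circulating replicates 1, 2 and 3, against 32.96, 22.54 and 26.61 in endogenous replicates 1, 2 and 3. The irradiated libraries lay between these groups at 54.65, 41.14 and 50.31. None of the 3 groups overlapped another, and circulating replicate 2, the library with the fewest estimated counts, stood well above every other library. The fitted difference between circulating and endogenous cells was 2.48 on the log2(value + 1) scale (SE 0.39, 95% interval 1.62 to 3.33, limma adjusted p = 0.0079), a 5.57-fold difference, higher in 3 of 3 circulating libraries. The call was kept without circulating replicate 2, where the difference was 1.91, and under each of the 18 alternatives (adjusted p from 0.0021 to 0.036). Circulating against irradiated cells differed by 1.66 (SE 0.39, limma adjusted p = 0.18), which did not pass except without circulating replicate 1 (2.03, adjusted p = 0.042). Irradiated against endogenous cells differed by 0.82 (SE 0.39, limma adjusted p = 0.36), which passed only when these groups were fitted alone (adjusted p = 0.045).

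Cxcr3 encodes the receptor for CXCL9, CXCL10 and CXCL11 and is best known from activated T cells, natural killer cells and plasmacytoid dendritic cells. It lies on chromosome X from 101731535 to 101734269 on the minus strand. Circulating replicates 1, 2 and 3 had 13.6, 50.4 and 21.4, against 2.63, 6.06 and 4.66 in the endogenous replicates. Irradiated libraries had 3.44, 3.34 and 3.83, within the endogenous range. The lowest circulating library thus stood above the highest of the 6 other libraries, and circulating replicate 2 was again the highest. Circulating cells exceeded endogenous cells by 2.29 on the log2(value + 1) scale (SE 0.46, 95% interval 1.28 to 3.29, limma adjusted p = 0.017), higher in 3 of 3 libraries. This call ended without endogenous replicate 1 (2.02, adjusted p = 0.068) and when only these groups were fitted (adjusted p = 0.058), and was kept in the other 16 of 18 alternatives. Against irradiated cells the difference was 2.499 (SE 0.46, 95% interval 1.497 to 3.5, limma adjusted p = 0.097), past the threshold only without circulating replicate 1 (2.91, adjusted p = 0.027). Irradiated and endogenous cells differed by -0.21 (95% interval -1.22 to 0.79).

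The DNA around the starts of the 2 genes that rose is shown to set them side by side. RefSeq windows on GRCm38.p6, from 250 bases before to 50 bases after the start annotated in RefSeq, matched 8 of the 9 receptors (all but S1pr1). The Ccr2 window is chr9:124101933-124102232 on the plus strand and the Cxcr3 window chrX:101734098-101734397 on the minus strand. The RefSeq starts differ from the edges of the gene spans given above, which come from GENCODE. The Ccr2 window begins just before the GENCODE gene start (124101950), so nearly all of it lies inside that gene span. For Cxcr3 the GENCODE gene edge (101734269) lies within the window. They are given 5′ to 3′ along the gene, with motif matches in capitals.
Ccr2: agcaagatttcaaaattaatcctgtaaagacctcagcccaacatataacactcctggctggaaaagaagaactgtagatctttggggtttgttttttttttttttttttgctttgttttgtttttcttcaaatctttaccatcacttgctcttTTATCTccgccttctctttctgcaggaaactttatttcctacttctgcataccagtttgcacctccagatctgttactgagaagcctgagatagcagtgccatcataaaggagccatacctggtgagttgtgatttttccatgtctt
Cxcr3: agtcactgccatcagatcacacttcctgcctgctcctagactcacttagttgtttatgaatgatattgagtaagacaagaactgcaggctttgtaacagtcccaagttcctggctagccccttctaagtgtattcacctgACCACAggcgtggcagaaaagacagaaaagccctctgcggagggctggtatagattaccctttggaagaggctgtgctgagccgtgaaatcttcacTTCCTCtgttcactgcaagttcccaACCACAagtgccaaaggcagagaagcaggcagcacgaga
The motifs searched on both strands were GAGGAA for PU.1, TTGCAA for C/EBP, TGTGGT for Runx, AGATAA for GATA, CACCC for KLF and CAGCTG for E2A, and no matches overlapped in these windows. The Ccr2 window held a single match, to GATA on the reverse strand, whose leftmost base lay at position -97 from the RefSeq start. The Cxcr3 window held 2 reverse-strand matches to Runx, at -110 and 12, and 1 to PU.1 at -14. All of these matches lie inside the gene spans that GENCODE gives. GATA letters occur in 11.2% of the 32851 promoter windows of this length, Runx letters in 16.8% and PU.1 letters in 28.3%. The windows of Ccr2 and Cxcr3 shared none of the 6 motifs. Their GC content was 38.0% and 49.3%.

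Cxcr2 encodes the receptor for CXCL1 and CXCL2 and is known for drawing neutrophils from marrow to blood. It lies on chromosome 1 from 74153989 to 74161246 on the plus strand. Its signal was 19.1, 29.5 and 11.8 in circulating libraries, against 25.6, 17.3 and 23.4 in endogenous libraries, and the ranges overlapped. The difference was -0.20 (SE 0.33, 95% interval -0.92 to 0.52, limma adjusted p = 0.73), an interval from 0.529-fold to 1.44-fold. Irradiated libraries had 12.8, 12.5 and 10.7, each below all 3 endogenous libraries. That difference was -0.81 (SE 0.33, 95% interval -1.54 to -0.09, limma adjusted p = 0.27) and did not pass. Circulating replicate 3, at 11.8, lay inside the irradiated range, and circulating cells differed from irradiated cells by 0.62 (95% interval -0.11 to 1.34, limma adjusted p = 0.50).

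Ccr1 encodes a receptor for CCL3, CCL5 and CCL9 and is found on monocytes, neutrophils and their progenitors. Its gene lies on chromosome 9 from 123962124 to 123968692 on the minus strand. Circulating libraries had 4.81, 15.7 and 12.99, irradiated libraries 3.35, 3.93 and 4.11, and endogenous libraries 7.295, 8.89 and 5.78. The irradiated group was lowest and overlapped neither of the others, while circulating replicate 1 fell below the endogenous range. Circulating against irradiated cells differed by 1.21 (SE 0.41, 95% interval 0.30 to 2.12, limma adjusted p = 0.33) and irradiated against endogenous cells by -0.78 (limma adjusted p = 0.42), and neither passed. Circulating and endogenous cells differed by 0.43 (95% interval -0.48 to 1.34).

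Ccr9 encodes the receptor for CCL25, known for guiding lymphoid progenitors to the thymus and lymphocytes to the gut. The annotated gene spans chromosome 9 from 123678439 to 123784330 on the plus strand, and 3 other annotated genes share exonic bases with it, among them Slc6a20a on the opposite strand. The library chemistry does not mark strand, so reads of those genes are not separated from its own. Circulating libraries had 21.1, 4.81 and 7.96, irradiated libraries 8.58, 8.77 and 9.525, and endogenous libraries 26.2, 36.2 and 18.9. Endogenous cells had the highest levels, all 3 irradiated libraries lay below them, and circulating replicate 1 lay within the endogenous range while the other two circulating libraries were lower than every irradiated library. Irradiated against endogenous cells differed by -1.45 (SE 0.44, 95% interval -2.43 to -0.48, limma adjusted p = 0.16) and circulating against endogenous cells by -1.38 (SE 0.44, 95% interval -2.35 to -0.40, limma adjusted p = 0.078). These differences share the endogenous libraries. Without circulating replicate 1 both passed, at -1.92 (adjusted p = 0.0071) for circulating and -1.45 (adjusted p = 0.047) for irradiated against endogenous cells. The irradiated difference also passed with sample weights (adjusted p = 0.024) and with these groups fitted alone (adjusted p = 0.017). Circulating and irradiated cells differed by 0.08 (95% interval -0.90 to 1.05).

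Cx3cr1 encodes the receptor for fractalkine (CX3CL1) and marks monocytes, macrophages and some dendritic progenitors. Its annotated gene, on chromosome 9 from 119901616 to 120069879 on the minus strand, spans 9 other annotated genes, 1 of which shares exonic bases with it. Circulating libraries had 5.84, 7.62 and 26.1, irradiated libraries 7.27, 3.19 and 10.2, and endogenous libraries 7.30, 4.44 and 6.47. A single library, circulating replicate 3, set the circulating mean apart, and all groups overlapped. The differences were 0.75 for circulating against endogenous cells (95% interval -0.43 to 1.92), 0.68 for circulating against irradiated cells (-0.50 to 1.85) and 0.07 for irradiated against endogenous cells (-1.11 to 1.24), with limma adjusted p from 0.40 to 0.97. Without circulating replicate 3 the first of these was 0.14.

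The 3 receptors for sphingosine-1-phosphate have different roles. S1pr1, on chromosome 3 from 115710433 to 115715072, encodes the receptor that draws lymphocytes and progenitors out of tissue into blood and lymph. Circulating libraries had 14.7, 31.5 and 18.7, irradiated libraries 16.4, 27.8 and 14.9, and endogenous libraries 22.6, 39.9 and 25.4. Replicate 2 was the highest in each group and all groups overlapped. The difference was -0.45 (95% interval -1.21 to 0.31, limma adjusted p = 0.44) for circulating against endogenous cells, 0.11 (-0.65 to 0.87) for circulating against irradiated cells and -0.56 (-1.32 to 0.20) for irradiated against endogenous cells.

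S1pr2, on chromosome 9 from 20962361 to 20976781, encodes a receptor that couples to G12 and G13 proteins and restrains migration. Circulating libraries had 19.2, 20.5 and 28.9, irradiated libraries 26.4, 21.9 and 28.2, and endogenous libraries 22.2, 14.5 and 9.73. Endogenous replicates 2 and 3 were the lowest of the 9 libraries, and endogenous replicate 1 lay inside the other groups' ranges. Irradiated against endogenous cells differed by 0.75 (95% interval 0.07 to 1.42, limma adjusted p = 0.28) and circulating against endogenous cells by 0.58 (95% interval -0.09 to 1.26, limma adjusted p = 0.25). These 2 differences share the endogenous libraries and neither passed. Circulating and irradiated cells differed by -0.16 (95% interval -0.84 to 0.51).

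S1pr4, on chromosome 10 from 81497747 to 81500132, encodes a receptor found mainly on blood cells. Circulating libraries had 4.89, 7.46 and 3.71, irradiated libraries 8.83, 8.05 and 6.999, and endogenous libraries 12.4, 7.34 and 7.95. Circulating libraries included the lowest values, but circulating replicate 2 overlapped both other groups. Circulating against endogenous cells differed by -0.70 (95% interval -1.46 to 0.06, limma adjusted p = 0.22), circulating against irradiated cells by -0.53 (-1.29 to 0.23) and irradiated against endogenous cells by -0.17 (-0.92 to 0.59), and none passed.

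**Figure D2:**
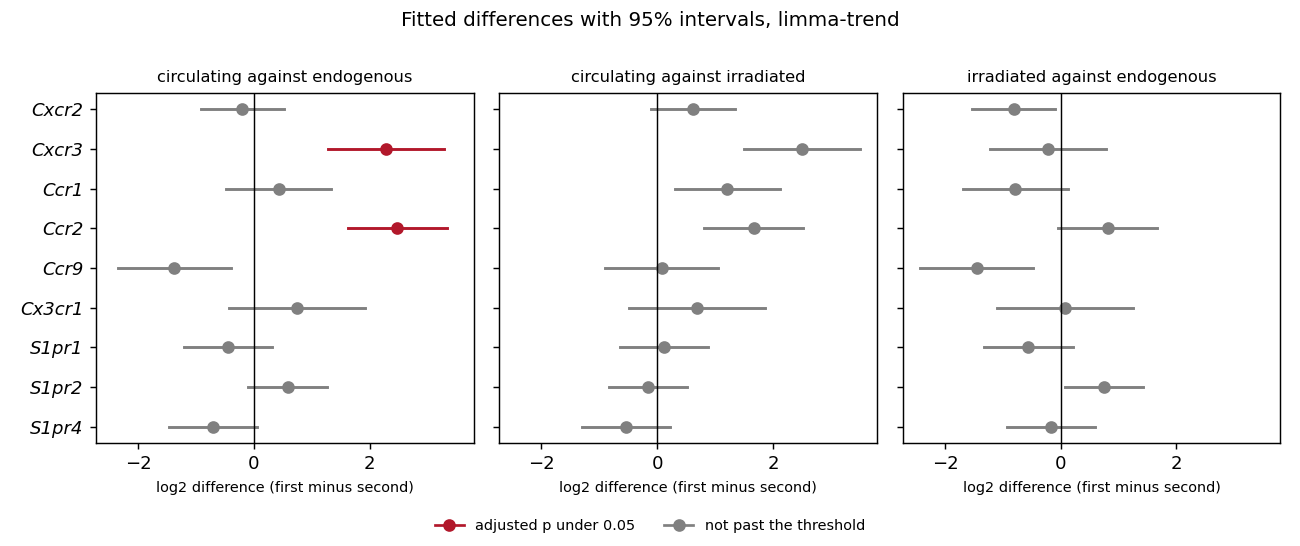
Fitted log2 difference, on the log2(value + 1) scale, of each receptor in the 3 comparisons, first named group minus second. Points are estimates and bars 95% intervals from limma-trend. Ccr2 (2.48) and Cxcr3 (2.29) in circulating against endogenous cells are the estimates past the threshold, and the intervals of the 3 receptors for sphingosine-1-phosphate stay between -1.46 and 1.42.

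Groups that do not overlap were counted beside the same count over all tested genes. Circulating and endogenous cells did not overlap for 2 of the 9 receptors (Ccr2 and Cxcr3, both higher in circulating cells), against 27.5% of all tested genes (14.6% higher and 12.9% lower). Circulating and irradiated cells did not overlap for 3 (Ccr1, Ccr2 and Cxcr3, all higher in circulating cells), against 16.7% of all genes (7.46% higher and 9.26% lower). Irradiated and endogenous cells did not overlap for 4, with Ccr2 higher and Cxcr2, Ccr1 and Ccr9 lower in irradiated cells, against 27.7% of all genes (15.2% higher and 12.5% lower).

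The spread of the receptors was widest among circulating libraries. Their median SD on the log2(value + 1) scale was 0.816 in circulating cells, where the median of all tested genes was 0.382. It was 0.150 in irradiated cells, where all genes had 0.213, and 0.371 in endogenous cells, where all genes had 0.262. The circulating libraries were high in different receptors. Replicate 2 was the highest of the 3 for 6 receptors (Cxcr2, Cxcr3, Ccr1, Ccr2, S1pr1 and S1pr4), replicate 3 for Cx3cr1 and S1pr2, and replicate 1 for Ccr9. The highest circulating library exceeded the lowest by 4.47 times for Cx3cr1, 4.396 times for Ccr9, 3.71 times for Cxcr3 and 3.69 times for Ccr2, against 1.503 times for S1pr2. Cxcr3 differed by 1.15 times among the irradiated libraries and Ccr9 by 1.11 times.

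Marker transcripts of other blood cell types also differed among the circulating libraries, and in bulk samples a larger share of cells of a type and more RNA per cell cannot be told apart. The 10 myeloid progenitor markers summed to between 13128.1 and 39436.1 in circulating, 7836.9 and 16431.7 in irradiated and 2334.8 and 3251.4 in endogenous libraries. Most of each sum was Mpo, with means of 18270, 8593 and 1905 in that order of groups. Of these 10 genes, 6 rose in circulating and 5 in irradiated cells against endogenous cells, and the group order of the sums is the one seen for Ccr2. Csf3r (192.5, 162.3 and 163.5) and Gfi1 (17.5, 9.59 and 10.2) did not follow it, with their lowest means in irradiated cells. The sum was highest in circulating replicate 3, whereas Ccr2 was highest in replicate 2. The 9 measured monocyte markers of 10 summed to between 1112.8 and 2686.6 in circulating, 1082.4 and 1558.8 in irradiated and 791.0 and 1221.2 in endogenous libraries. Of 8 tested, 2 (Ly6c2 and Treml4) rose in circulating against endogenous cells and 6 did not pass. Of those 6, F13a1 (2.197), Ms4a4c (1.182) and Ms4a6c (0.408) differed upward. Lyz2 (-0.495), Fn1 (-0.677) and Cd14 (-0.242) differed downward. The 8 T cell markers summed to 225.8 in circulating replicate 2 and to 103.6 and 67.3 in the other two circulating libraries, with means of 77.9 in irradiated and 124.4 in endogenous cells. Lck, a kinase gene of lymphocytes, made up most of these sums outside circulating replicate 2, with 98.3 and 46.9 in the other two circulating libraries, 51.05 to 82.8 in irradiated and 105.5 to 108.8 in endogenous libraries. In that library Trac, which encodes the T cell receptor alpha constant chain, stood at 30.05, Cd3g at 31.03 and Cd8a at 32.25, and in the other 8 libraries none of these exceeded 5.64. Cd4, of the same list, stood at 4.47 there, below the endogenous libraries at 11.54, 9.945 and 4.99. Of the 7 tested T cell markers, 0 passed in any of the 3 comparisons. Without circulating replicate 2, Ccr2 and Cxcr3 were still the called receptors in circulating against endogenous cells, with differences of 1.91 and 1.78. The 8 B lineage markers summed to between 107.2 and 316.6 in circulating, 84.0 and 107.9 in irradiated and 75.3 and 108.1 in endogenous libraries. The other lists ranged as follows in circulating, irradiated and endogenous libraries. The 3 measured natural killer cell markers of 7 summed to between 516.7 and 897.5, 534.7 and 650.9, and 225.9 and 281.2, nearly all of it Nkg7. In circulating against endogenous cells Nkg7 rose (1.484, limma adjusted p = 0.0027), while Klrb1c (-0.033) and Klrd1 (-0.446) did not pass. Nkg7 was also the 1 of these markers that rose in irradiated against endogenous cells. The 7 measured plasmacytoid dendritic markers of 8 summed to between 448.4 and 566.3, 345.8 and 471.5, and 356.2 and 497.1, while Siglech, their defining member, was at or below 0.413 in all circulating libraries. The 6 measured conventional dendritic markers of 7 summed to between 396.1 and 800.8, 341.4 and 491.6, and 652.8 and 889.7, and most of each sum was Flt3, which early progenitors also express. Of the 5 tested, Xcr1 and Clec9a rose in circulating against endogenous cells and 0 fell, with a median of 1.605. The 5 measured markers other than Flt3 were each highest of the 9 libraries in circulating replicate 2, where Ccr2 and Cxcr3 also peaked, with Xcr1 at 118.0, Zbtb46 at 34.4, Itgax at 30.5, Clec9a at 26.4 and Batf3 at 9.72. The 12 neutrophil markers summed to between 1293.1 and 2086.2, 911.6 and 2160.9, and 1180.9 and 2467.4. In circulating against endogenous cells Fcnb rose (2.735), Mmp8 (-2.722) and Retnlg (-3.735) fell and 9 did not pass, with a median of -0.925. No measured marker of these lists was at a count of 0 in all 3 libraries of a group. The part of these cell types in the receptor differences was not tested.

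**Figure D3:**
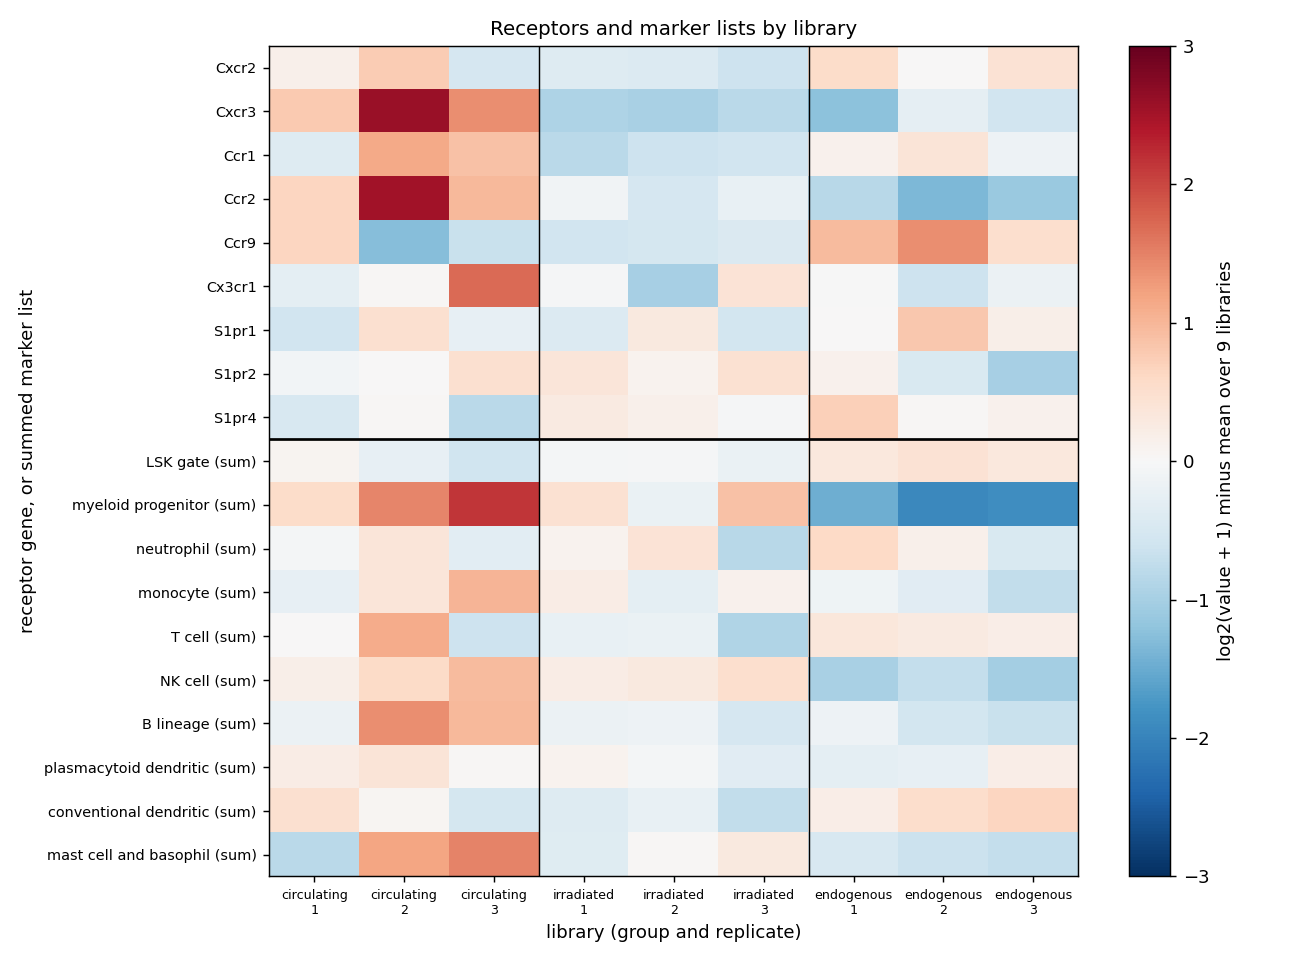
Receptor genes (above the line) and summed marker lists (below it) in each of the 9 libraries, as log2(value + 1) minus the mean over the libraries (colour scale from -3 to 3). Circulating replicate 2 is the highest library for both Ccr2 (343.9) and Cxcr3 (50.4) and has the highest T cell sum (225.8), while circulating replicate 3 has the highest myeloid progenitor sum (39436.1).

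Levels of different receptors were compared per kilobase of annotated exon. In circulating cells Ccr2 was first with 27.3 ± 20.5 and Cxcr3 second with 16.4 ± 11.2, followed by S1pr1 with 7.10 ± 2.88 and Cxcr2 with 6.60 ± 2.93. The ranges of each of these neighbours overlapped. In irradiated cells Ccr2 (7.20 ± 1.02) and S1pr1 (6.47 ± 2.31) overlapped, and Cxcr2 followed with 3.94 ± 0.377. In endogenous cells S1pr1 was first with 9.62 ± 3.04, ahead of Cxcr2 with 7.24 ± 1.42 and Ccr2 with 4.05 ± 0.777. Endogenous S1pr1 and Cxcr2 overlapped, while by annotated exon length every Cxcr2 value there (5.67 to 8.403) exceeded every Ccr2 value (3.33 to 4.88). The other 5 receptors averaged 1.102 to 3.94 in circulating cells, the other 6 averaged 0.873 to 3.34 in irradiated cells and the other 6 averaged 1.35 to 3.87 in endogenous cells. By this length the lowest mean was that of Ccr9 in circulating cells (1.102 ± 0.845) and in irradiated cells (0.873 ± 0.0487) and that of Cx3cr1 in endogenous cells (1.35 ± 0.327). Ccr9 has the longest exon annotation, 10.26 kb, and with its longest transcript of 5.20 kb as the length its endogenous mean became 5.22, rank 3 of the 9 in place of rank 5. In irradiated cells that length gave Ccr9 a mean of 1.72, which left Ccr1 lowest with 1.34, and put S1pr2 (3.98) just ahead of Cxcr2 (3.94). With longest transcripts as the length, the ranges of endogenous Cxcr2 (7.25 ± 1.42) and Ccr2 (4.78 ± 0.917) overlapped. Per kilobase of annotated exon, the Ccr2 mean exceeded that of 82.4% of tested genes for circulating, 56.0% for irradiated and 41.4% for endogenous cells, and the S1pr1 mean that of 55.3%, 53.5% and 62.0%.

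**Figure D4:**
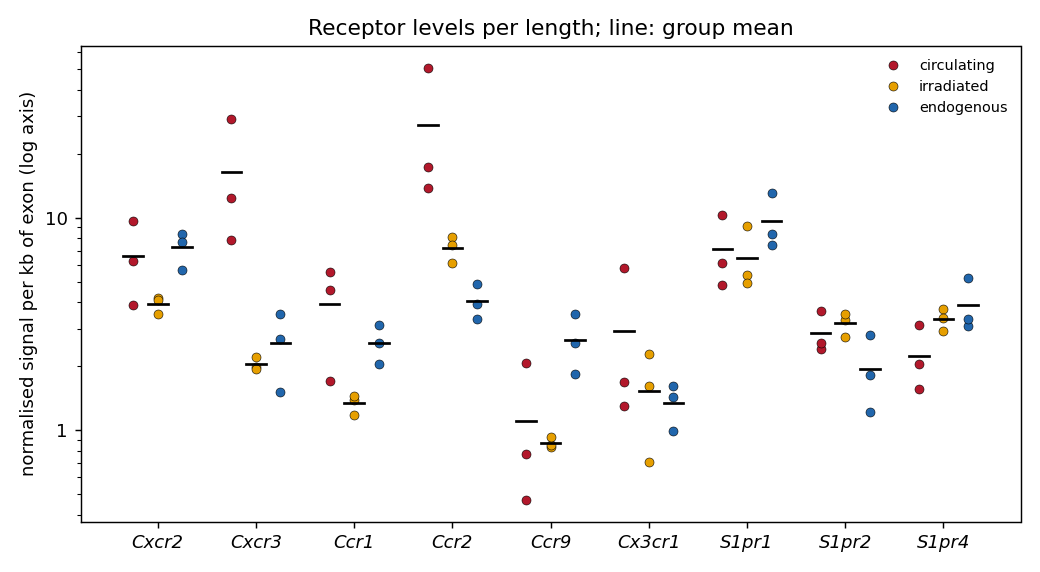
Deposited signal per kilobase of annotated exon (log axis) for each receptor, with circulating, irradiated and endogenous libraries from left to right. Points are libraries and lines are group means. Ccr2 and Cxcr3 lead in circulating cells (means 27.3 and 16.4), and S1pr1 and Cxcr2 lead in endogenous cells (9.62 and 7.24).

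Ccr1, Ccr2 and Ccr9 lie in a cluster of receptor genes, and their neighbours were set beside them. From the start of Ccr9 to the end of Ccr2, 8 genes of the table lie on chromosome 9, all of them tested: Ccr9, Lztfl1, Fyco1, Cxcr6, Xcr1, Ccr1, Ccr3 and Ccr2. In circulating against endogenous cells Ccr2 and Xcr1 rose and the other 6 did not pass. Xcr1, the receptor gene of cross-presenting dendritic cells, had 24.1, 118.0 and 30.8 in circulating and 5.08, 3.82 and 8.68 in endogenous libraries (log2 difference 2.79, SE 0.54, limma adjusted p = 0.014). Its call ended without endogenous replicate 1 (adjusted p = 0.0565) or 2 (0.0584). Ccr1 and Ccr3, which lie between Xcr1 and Ccr2, differed by 0.43 (95% interval -0.48 to 1.34) and -0.22 (-1.23 to 0.79). Cxcr6, on the other side of Xcr1, differed by 1.72 (-0.28 to 3.72). In circulating against irradiated cells no gene of the cluster passed. The differences there were 1.99 for Cxcr6, 2.06 for Xcr1, 1.21 for Ccr1, 0.12 for Ccr3 and 1.66 for Ccr2. Those of Ccr9, Lztfl1 and Fyco1 were 0.08, 0.35 and 0.22. Whether the cluster changed as a unit was not tested.

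**Figure D5:**
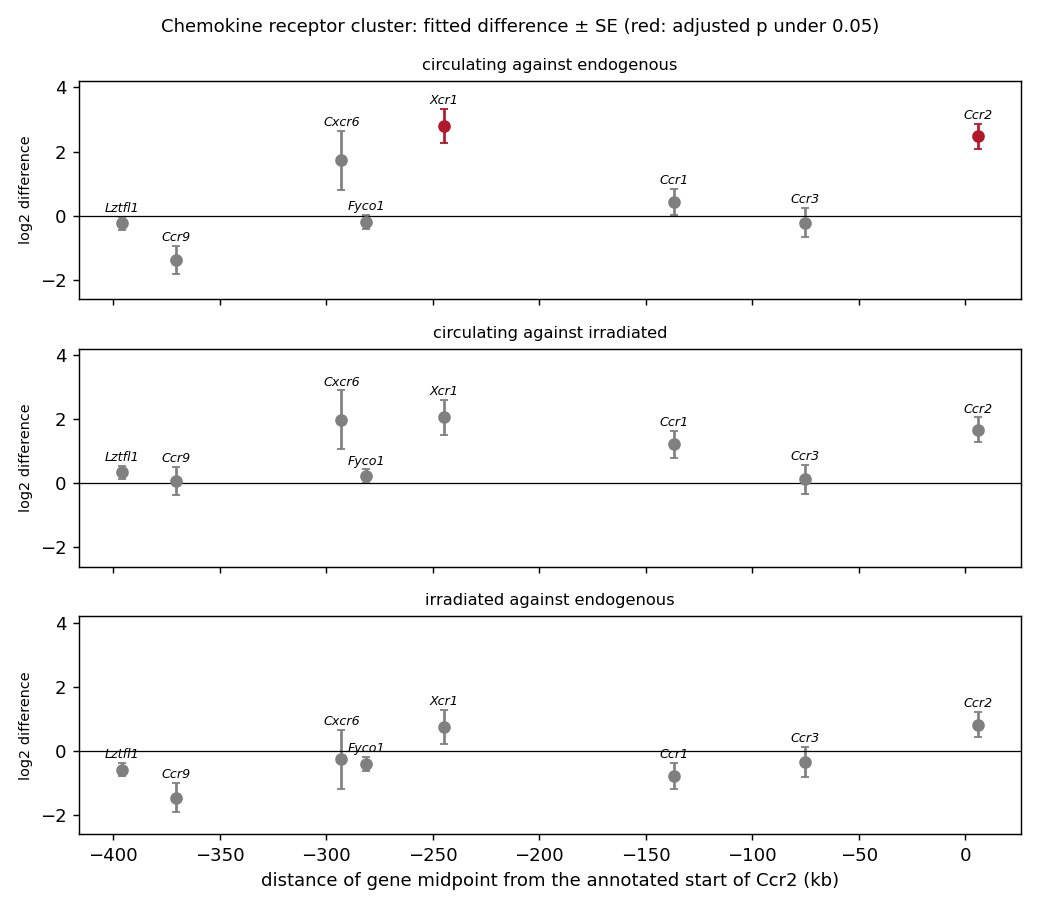
Fitted log2 difference ± SE of the 8 tested genes of the chromosome 9 receptor cluster, placed by the distance in kb of the gene midpoint from the annotated start of Ccr2, in the 3 comparisons. In circulating against endogenous cells Xcr1 (2.79) and Ccr2 (2.48) are past the threshold, with Ccr1 (0.43) and Ccr3 (-0.22) between them.

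The genes whose profiles over the 9 libraries lay closest to those of the called receptors were named by a distance, the root-mean-square difference of centred log2(value + 1) values, among 10410 candidate genes. For Ccr2 these were Plbd1, a phospholipase B-like gene (0.274 log2 units), H2-Ab1, an MHC class II chain (0.323), and Ifi205, an interferon-inducible gene (0.383), against a median of 1.18 over the candidates. Plbd1 had 52.0, 385.0 and 88.0 in circulating, 45.6, 34.0 and 32.3 in irradiated and 29.9, 16.4 and 23.9 in endogenous libraries, with the same lead of circulating replicate 2. For Cxcr3 they were Klrk1, which encodes the activating receptor NKG2D of natural killer and T cells (0.442), Pid1 (0.467) and the scavenger receptor gene Cd36 (0.507), against a median of 1.27. Klrk1 had 8.70, 70.3 and 18.3 in circulating, 4.92, 3.30 and 4.201 in irradiated and 4.46, 3.37 and 3.35 in endogenous libraries. These distances are descriptions, since the libraries share the group structure.

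Other chemokine receptors of a list of 17 were measured for 9 and tested for 8. In circulating against endogenous cells 1 (Xcr1) rose and 7 did not pass, with a median of 0.17. Cxcr4, the marrow retention receptor, had 65.8, 57.8 and 64.8 in circulating, 9.86, 14.5 and 8.54 in irradiated and 47.0, 44.2 and 50.8 in endogenous libraries. It was the 1 of 8 that passed in each comparison with irradiated cells, higher in circulating (2.44, limma adjusted p = 0.00096, or 0.106 when only these libraries were fitted with the replicate number as a block) and lower in irradiated than in endogenous cells (-2.04, limma adjusted p = 0.0043), whereas none of the 9 receptors passed there. Of 15 tested genes on a list of other receptors and handling of sphingosine-1-phosphate, which also takes in Cers2 and Cd69, 0 passed in any of the 3 comparisons, also with limma voom. S1pr3, a further receptor of this lipid, had 22.6, 46.5 and 30.1 in circulating, 26.8, 31.0 and 34.8 in irradiated and 18.1, 34.6 and 27.0 in endogenous libraries. At an unadjusted p under 0.05 there were 4 of the 15 in circulating against endogenous, 2 in circulating against irradiated and 3 in irradiated against endogenous cells. The shares of all tested genes were 26.7%, 11.4% and 14.9% in that order. The median difference of the 15 was 0.20 in circulating against endogenous, 0.04 in circulating against irradiated and 0.22 in irradiated against endogenous cells.

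Of 11 measured chemokine genes, 1 was called higher and 1 lower in circulating than in endogenous cells (median -0.53). Both that passed encode ligands of the receptor encoded by Ccr1. Ccl9 had 105.9, 155.0 and 176.6 in circulating and 64.0, 70.25 and 80.7 in endogenous libraries (0.99, SE 0.19, limma adjusted p = 0.014), and Ccl3 had 14.98, 1.24 and 4.45 in circulating libraries, against 33.1, 24.6 and 22.5 in endogenous libraries (-2.24, SE 0.59, limma adjusted p = 0.042). The Ccl9 call ended without endogenous replicate 1 (adjusted p = 0.0594) or 2 (0.0529), and the Ccl3 call ended without any 1 of 8 libraries (adjusted p up to 0.136), being kept without circulating replicate 1 alone. It ended for Ccl3 also with quantile normalisation (limma adjusted p = 0.0529) and with sample weights (0.0616), and was kept in 7 of 18 alternatives. Of 11 tested receptors for other chemoattractants, 1 rose and 10 did not pass (median 0.06). Ltb4r1, which encodes the leukotriene B4 receptor of neutrophils and effector T cells, had 19.1, 41.2 and 38.8 in circulating and 9.63, 3.42 and 10.2 in endogenous libraries (2.001, SE 0.40, limma adjusted p = 0.017). Its call ended without circulating replicate 3 (0.0518) or endogenous replicate 2 (0.0529).

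Signalling genes below the receptors were counted in circulating against endogenous cells, where 8.63% of all tested genes were called. Of 15 tested G protein subunit genes, the gamma subunit gene Gng12 rose (226.7 ± 66.9 in circulating, 110.5 ± 5.43 in endogenous cells, 0.99, limma adjusted p = 0.013), the gamma subunit gene Gng11 fell (12.8 ± 3.07 against 31.4 ± 7.05, -1.23, limma adjusted p = 0.023) and 13 did not pass. The Gng12 call ended without endogenous replicate 2 (0.0536), and the Gng11 call without circulating replicate 3 (0.062) or endogenous replicates 1 (0.0829) or 2 (0.0828). Of 14 arrestin, receptor kinase and RGS genes, which switch receptors off, 0 passed in the 3 comparisons (median -0.02 in circulating against endogenous cells). At an unadjusted p under 0.05 there were 7 in circulating against endogenous, 3 in circulating against irradiated and 0 in irradiated against endogenous cells. The shares of all tested genes at that level were 26.7%, 11.4% and 14.9%. Of 22 genes of migration signalling, 2 were called lower and 0 higher in circulating than in endogenous cells (median -0.13). Rhoh averaged 95.8 ± 3.98 in circulating and 155.6 ± 4.96 in endogenous cells (-0.69, SE 0.12, limma adjusted p = 0.011). Ptk2b, which encodes the adhesion-linked kinase PYK2, averaged 46.9 ± 10.2 against 91.0 ± 8.36 (-0.96, SE 0.19, limma adjusted p = 0.016), and its call ended without endogenous replicate 1 (0.064) or 2 (0.0593). When only circulating and endogenous libraries were fitted, the calls of Ccl9, Ccl3, Ltb4r1, Gng11, Rhoh and Ptk2b ended (adjusted p from 0.0509 to 0.0954). Scaled by library totals alone, 2 genes of the arrestin, kinase and RGS list (Rgs1 and Rgs3) and 5 of the migration list were called, beside 1161 of all tested genes. Without circulating replicate 1, the calls were 3 on the sphingosine-1-phosphate list, 5 among chemokines, 2 among other chemoattractant receptors, 4 among G protein subunits, 2 on the arrestin list and 5 on the migration list. In that fit 2224 of all 13771 tested genes were called, against 1189 in the reported fit. In the other 2 comparisons 0 genes of the chemokine, chemoattractant, G protein and migration lists passed. At an unadjusted p under 0.05 there were 3, 1, 2 and 5 genes in circulating against irradiated cells, against 11.4% of all tested genes. In irradiated against endogenous cells there were 3, 1, 4 and 6, against 14.9% of all tested genes.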

How the data were processed

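RNA from sorted LSK cells was amplified with SMART-Seq v4 and made into Nextera XT libraries, per the labels' protocols, a chemistry that does not mark strand. The submitters' processing notes list CASAVA, RSEM 1.3.1, limma and mm10 without saying which step each served. The sources used here give neither the annotation nor the scaling and gene filter. The authors deposited 1 table of normalised signal values in 9 columns. Every value is a number with 2 decimals plus 0.5, times a constant of its column (tolerance 0.001), so estimated counts were recovered from the smallest value of each column.

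Genes with a signal of at least 1 in at least 3 libraries (13771) were fitted on log2(value + 1) with limma-trend (limma 3.58.1, R 4.3.3), with robust moderation, all 9 libraries and no covariates, and adjusted by Benjamini-Hochberg over all tested genes, with calls under 0.05. Fold changes on this scale understate changes of low genes. The fit was checked on simulated data. Groups came from the sample labels. They do not state that replicates were separate animals, so p-values reflect only the spread among these samples, possibly technical. Receptors and gene lists were chosen with earlier results of these data known. The motifs and the span of the receptor cluster were chosen after the values were seen. All 9 receptors are named. The 3 closest profiles of each called receptor (average log2 value of at least 2, no predicted loci, pseudogenes or antigen receptor segments) and up to 4 called genes per list were added. Symbols and coordinates came from GENCODE on GRCm38 (14405 of 14461 genes matched), and promoters from RefSeq on GRCm38.p6.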

Additional observations from a re-analysis of the deposited data

How the results depend on the processing

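The count of called receptors in circulating against endogenous cells was 2 in the reported fit and 1 when only these groups were fitted. Leaving out 1 library at a time gave 1 to 3. In circulating against irradiated cells it was 0, and 0 to 2 with 1 library left out. In irradiated against endogenous cells it was 0, but 1 with sample weights, 2 when only these groups were fitted, and 0 to 1 with 1 library left out. The cause of these shifts was not tested.

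Ccr2 in circulating against endogenous cells kept its call in 18 of 18 alternatives, with differences from 1.91 to 2.84. Signs turned for 5 differences, none of them past the threshold either way. With 1 library left out, Cxcr2 in circulating against endogenous cells ranged from -0.51 to 0.12. In circulating against irradiated cells Ccr9 ranged from -0.46 to 0.50 and S1pr1 from -0.18 to 0.37. In irradiated against endogenous cells Cx3cr1 ranged from -0.24 to 0.47 and S1pr4 from -0.297 to 0.047. Scaled by library total alone, which shifted the median gene by -0.22 in circulating against endogenous cells, the difference for Cx3cr1, irradiated against endogenous, was -0.049.

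Titles of same-numbered circulating and irradiated libraries share a DD code, whose meaning the labels do not give, and endogenous titles carry SJ codes. Whether these codes mark a shared animal or day is not known, so the data were used to look for pairing. Deviations of same-numbered libraries correlated at 0.03 to 0.18 between circulating and irradiated cells and at -0.02 to 0.08 in the comparisons with endogenous cells, and not every pair passed 0.1. With the replicate number as a block, 2, 0 and 0 receptors were called in the same order of comparisons, and all genes called were 1147, 9 and 105, against 1189, 4 and 83 without it. With the block in a fit of the circulating and irradiated libraries only, chosen after seeing the data, 0 receptors and 2 genes in all were called, and the Cxcr4 call ended (adjusted p = 0.106). Called genes over the whole table were 239 in circulating against endogenous and 757 in irradiated against endogenous cells when only those groups were fitted, and 494 and 897 with sample weights. Each receptor rested on at least 63.5 estimated counts in every library.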
